A study of Mus musculus with 12 samples.

Results

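Interleukins and their receptors were followed in the tibialis anterior, a hindlimb muscle, of wild-type mice and of mdx/mTR mice, a strain named for a mutation of dystrophin and for telomerase RNA. The genes were all rows of the count table whose symbol starts with Il and a digit, 83 of 24421 rows. The groups were 6 male C57Bl/6 mice (WT) and 6 male mdx/mTR mice, each 4 months old. In mdx mice the dystrophin gene, Dmd, is disrupted, and mTR is the name of the mouse telomerase RNA gene; no sample has one without the other, so their effects cannot be told apart. The labels say no more of either mutation. By name and known function, 37 of the 83 genes encode ligands, 38 receptor chains, and 6 soluble or decoy inhibitors. The other two are Il1bos, an RNA antisense to Il1b, and Il4i1, an amino acid oxidase named for its induction by interleukin 4.

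Interleukins are secreted signals that act mostly between immune cells and the tissue around them. A ligand binds a specific receptor chain, which then pairs with a shared chain. Receptors of the IL-1 family signal through the adaptor MyD88 to NF-kappaB, and the haematopoietin receptors signal through Janus kinases and STAT factors. In damaged muscle these signals are known to recruit and change macrophages, to act on fibro-adipogenic progenitors and to support regulatory T cells, and several interleukins are also made by muscle fibres themselves.

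Library totals ran from 35136327 to 60330410 counts, and a gene with no count in a library may have had up to 3 counts there, or 0.0460 to 0.0837 CPM (CPM, counts relative to the library's total, scaled between libraries with edgeR's TMM factors). Dmd was at 228 to 244 CPM in WT and at 35.2 to 56.4 CPM in mdx/mTR, and Terc, the telomerase RNA gene, had 2 counts over all libraries, too few for a check. All 9 muscle fibre markers examined were detected. The summed level of 10 macrophage markers was 102 to 174 CPM in WT and 280 to 747 CPM in mdx/mTR. The library of mdx/mTR replicate 5 was the highest of its group for 19 of the 39 interleukin genes tested, and for the macrophage and neutrophil markers. Where a fold change depended on that library, its value without it is given too. In whole muscle, more cells of a type and more RNA per cell cannot be told apart. Nothing in the labels says more of how the mice relate to each other, so p-values measure the spread between these mice.

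Of the 83 genes, 39 had enough counts to be tested, 31 had some counts but too few, and 13 had none in any library. Among the 39, 21 were higher in mdx/mTR (53.8%), 1 was lower and 17 were not called, at an adjusted p of 0.05 in edgeR. Of all 13937 genes tested, 25.0% were called higher and 23.4% lower, 48.3% in either direction. With library totals alone in place of TMM scaling, 5596 genes were called higher and 1560 lower, against 3479 and 3257 with TMM, and 24 of the 39 were higher. The median log2 fold change of the 39 was 0.48, against 0.014 for all genes in the test. A rise of 2-fold or more was called for 11 of the 39, against 7.24% of all tested genes. All 6 mdx/mTR mice lay above all 6 WT mice for 13 of the 39 and below them for 0, where 12.6% of all tested genes lay above and 12.6% below. The filter bears on these counts: 7 of the 39 passed it through the mdx/mTR libraries alone, and 6 of those 7 are among the 21. Those 6 (Il18r1, Il18rap, Il7r, Il2rb, Il1rn and Il21r) are also all among the 11 with a rise of 2-fold or more. All of them but Il2rb are among the 13 without overlap. Without mdx/mTR replicate 5, 18 were higher and 1 was lower, and the median log2 fold change of the 39 fell to 0.33, against 0.0068 for all genes.

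**Figure D1:**
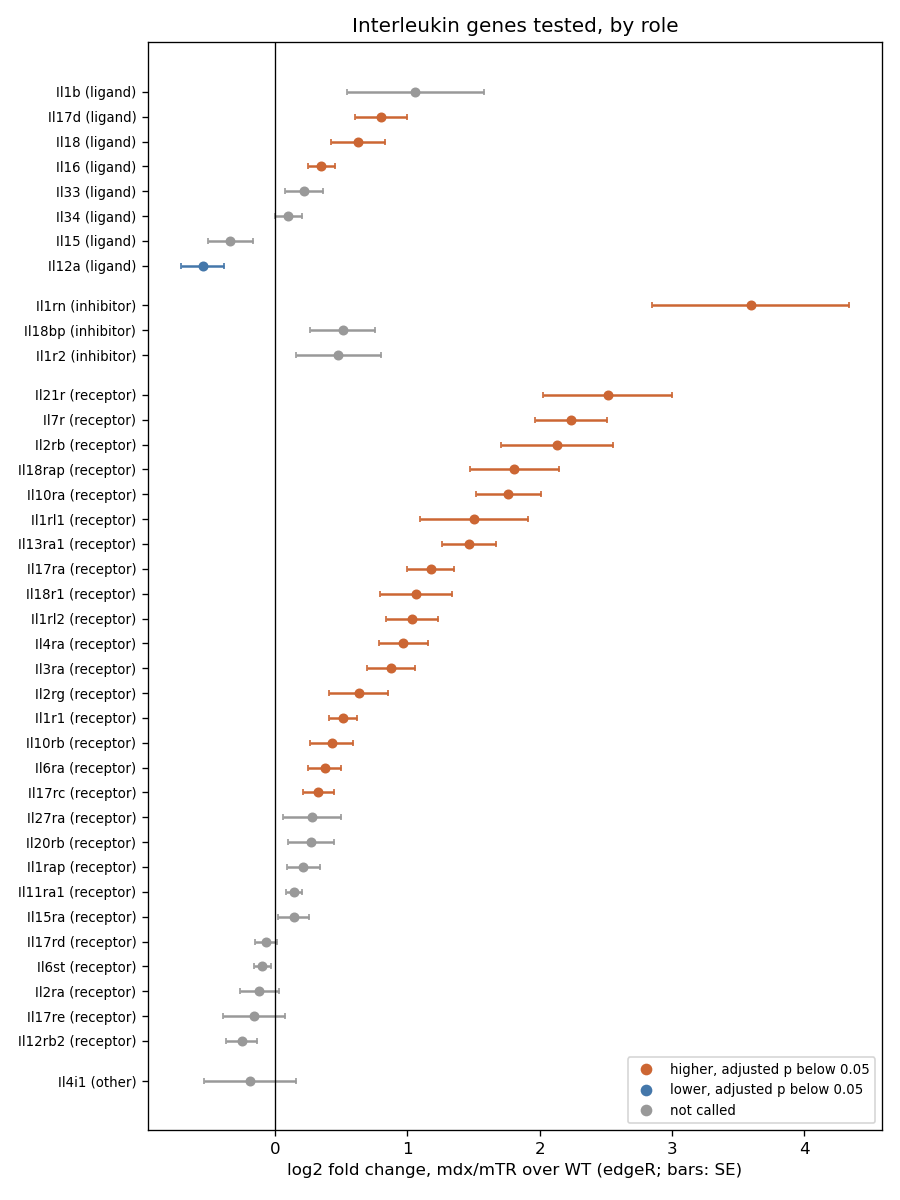
Log2 fold changes (mdx/mTR against WT) of the 39 genes tested, each with its standard error, sorted within ligands, inhibitors, receptors and others; colour gives the edgeR call at an adjusted p of 0.05. Receptors reach from -0.25 for Il12rb2 to 2.51 for Il21r, and the largest value is 3.59 for the inhibitor gene Il1rn.

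By role, 27 of 38 receptor chain genes were tested, of which 17 were higher and 0 lower. Of the 17, Il18r1, Il18rap, Il7r, Il2rb and Il21r passed the filter through the mdx/mTR libraries alone. Only 8 of 37 ligand genes were tested, of which 3 were higher and 1 lower, and 11 of the 37 had no count in any library. Of 6 inhibitor genes, 3 were tested and 1 was higher. In 12 of the 27 receptor genes tested the mdx/mTR mice all lay above the WT mice, and in 0 of the 8 ligand genes. Over all tested genes, 25.0% were called higher and 12.6% lay above. The 8 ligand genes are too few to be set apart from that 12.6%. Counts by role are given with no test between roles.

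Per length, the order of levels within a muscle was led by a shared receptor chain. Il6st, which encodes gp130, the signalling chain of the IL-6 family, averaged 25.5 ± 0.465 CPM per kb of exon in WT (SD, n = 6). Next in WT came Il11ra1 at 4.02 ± 0.315, Il15 at 3.42 ± 0.609, Il34 at 3.3 ± 0.536 and Il15ra at 3.12 ± 0.389 CPM per kb. These last genes overlapped between mice, so their order among themselves is not set apart from their spread. In mdx/mTR, Il6st stayed first at 23.9 ± 2.42 CPM per kb, while Il4ra stood at 4.19 ± 1.49 and Il13ra1 at 3.39 ± 1.22, against 2.14 ± 0.238 and 1.23 ± 0.159 in WT. The level of Il11ra1 is uncertain: 46.5% of the 50-base stretches of its longest transcript occur in another gene, and its near-copy Il11ra2, whose transcript is wholly shared, had no count in any library.

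**Figure D2:**
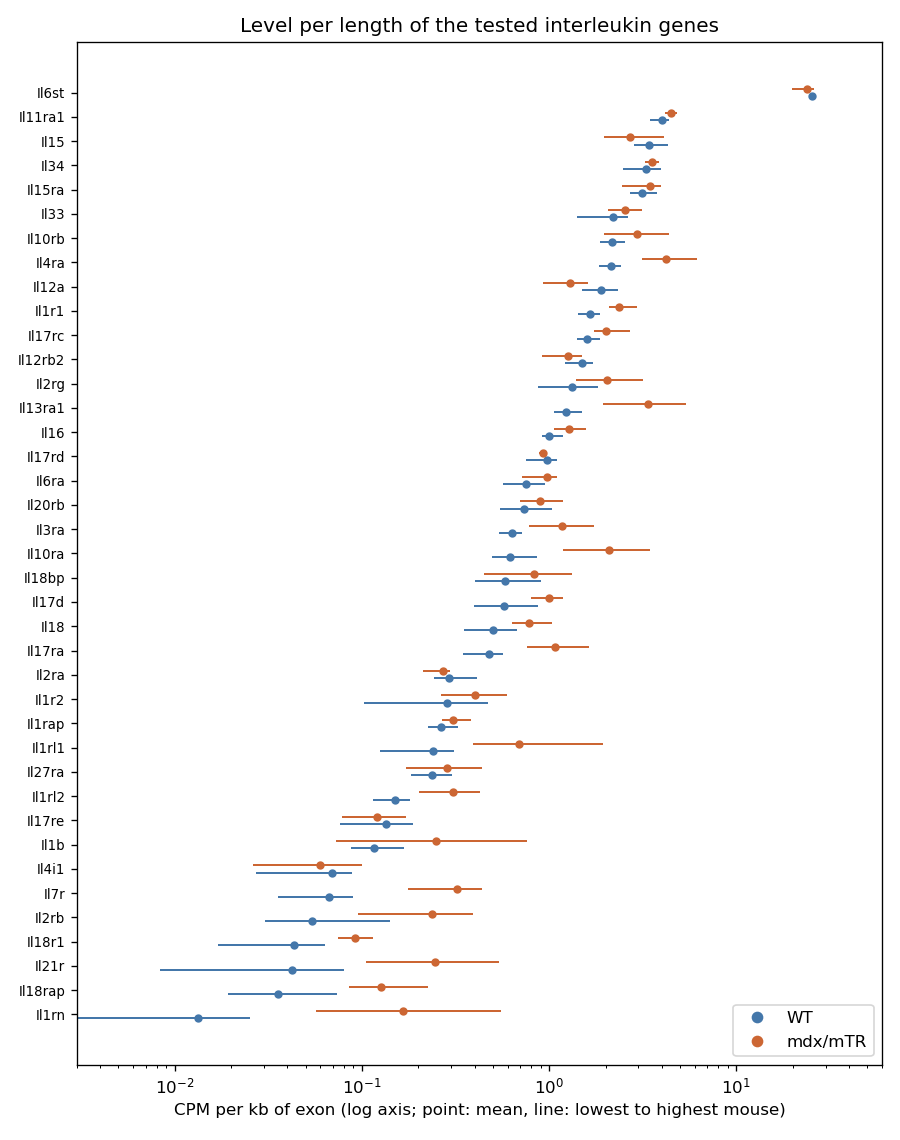
Level per kb of exon of the 39 genes tested, on a log axis, for WT (blue) and mdx/mTR (orange); points are means and lines run from the lowest to the highest mouse, with the WT line of Il1rn drawn to the axis edge because its lowest mouse is at 0. Il6st stands apart at the top, and Il1rn is lowest in WT at 0.0133 CPM per kb.

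Among the ligands, 3 rose. For each gene, CPM values are those of the lowest, the median and the highest of the 6 mice of a group, followed by the edgeR log2 fold change, mdx/mTR over WT, with its SE. Il18, an IL-1 family cytokine that is matured by the inflammasome, ran through 0.361, 0.495 and 0.695 CPM in WT and 0.655, 0.757 and 1.06 CPM in mdx/mTR (difference 0.63 ± 0.20 log2, adjusted p 0.0192). Il16, a CD4 ligand that attracts T cells and macrophages, was at 7.22, 7.53 and 9.27 CPM in WT and 8.3, 9.74 and 12.3 CPM in mdx/mTR (difference 0.35 ± 0.10 log2, adjusted p 0.00972). Exons of opposite-strand genes cover 17.4% of the exonic bases of Il16, so its level is uncertain. Both genes overlapped between groups: the lowest mdx/mTR mouse of each lay inside the WT range. Il17d, an IL-17 family member, was at 0.504, 0.658 and 1.11 CPM in WT and 1.01, 1.24 and 1.52 CPM in mdx/mTR (difference 0.80 ± 0.20 log2, adjusted p 0.00427). Its groups overlapped through WT replicate 3, which lay above mdx/mTR replicate 6. Il12a was the single gene of the 39 called lower; it encodes the p35 subunit of IL-12 and IL-35 and was at 2.54, 3.08 and 3.97 CPM in WT and 1.58, 2.38 and 2.73 CPM in mdx/mTR (difference -0.54 ± 0.16 log2, adjusted p 0.0128). At an adjusted p of 0.01 it was not called.

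For 4 ligands the test was not passed. Il1b, the central inflammatory cytokine of the IL-1 family, was at 0.167, 0.216 and 0.318 CPM in WT and 0.138, 0.298 and 1.45 CPM in mdx/mTR (difference 1.06 ± 0.52 log2, adjusted p 0.105). The highest mouse was mdx/mTR replicate 5: the other 5 mdx/mTR mice reached at most 0.393 CPM, and the log2 fold change without it was 0.31 (edgeR adjusted p 0.42). Without mdx/mTR replicate 2 instead, Il1b was called higher at 1.27 (adjusted p 0.0447). Il33, the alarmin that fibro-adipogenic progenitors are known to release, was at 4.03, 6.52 and 7.64 CPM in WT and 5.98, 7.06 and 9.02 CPM in mdx/mTR (difference 0.22 ± 0.14 log2, adjusted p 0.216). Its receptor gene Il1rl1 was called higher, as given below. Il34, a second ligand of the macrophage receptor Csf1r, was at 4.86, 6.44 and 7.8 CPM in WT and 6.34, 6.97 and 7.6 CPM in mdx/mTR (difference 0.10 ± 0.10 log2, adjusted p 0.43). The muscle-expressed cytokine Il15 was at 6.43, 7.4 and 9.77 CPM in WT and 4.45, 5.97 and 9.28 CPM in mdx/mTR (difference -0.34 ± 0.17 log2, adjusted p 0.114). Replicate 4 was the one mdx/mTR mouse in the upper part of the WT range. Without that mouse Il15 was called lower at -0.49 (adjusted p 0.011).

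Il1rn had the largest fitted change among the 39, and entered the test through the mdx/mTR libraries alone. It encodes the IL-1 receptor antagonist, which occupies the receptor without signalling, and was at 0, 0.0829 and 0.139 CPM in WT and 0.314, 0.475 and 3.05 CPM in mdx/mTR (difference 3.59 ± 0.74 log2, adjusted p 0.00137). Every mdx/mTR mouse lay above every WT mouse, and the WT total was 16 counts over 6 libraries against 278 in mdx/mTR. The highest mouse was mdx/mTR replicate 5, at 3.05 CPM, where the rest of the group spanned 0.314 to 0.798 CPM; without it the log2 fold change was 2.71 (adjusted p 0.00032). For Il18bp, which binds and blocks IL-18, the values were 1.22, 1.55 and 2.74 CPM in WT and 1.36, 2.33 and 4.03 CPM in mdx/mTR (difference 0.51 ± 0.24 log2, adjusted p 0.0979). It was called higher without WT replicate 6 (0.68, adjusted p 0.0325) and without mdx/mTR replicate 1 (0.64, adjusted p 0.0274). The highest Il18bp mouse was mdx/mTR replicate 5, and the rest of its group reached at most 2.79 CPM. Without replicate 5 the mdx/mTR mean was 2.21 CPM, against 1.76 CPM in WT. With each mouse left out in turn, the log2 fold change of Il18bp ran from 0.33 to 0.68. Il1r2, the decoy receptor of IL-1, was at 0.195, 0.496 and 0.903 CPM in WT and 0.506, 0.74 and 1.13 CPM in mdx/mTR (difference 0.48 ± 0.32 log2, adjusted p 0.237). The groups overlapped for both, and neither was called with all mice.

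**Figure D3:**
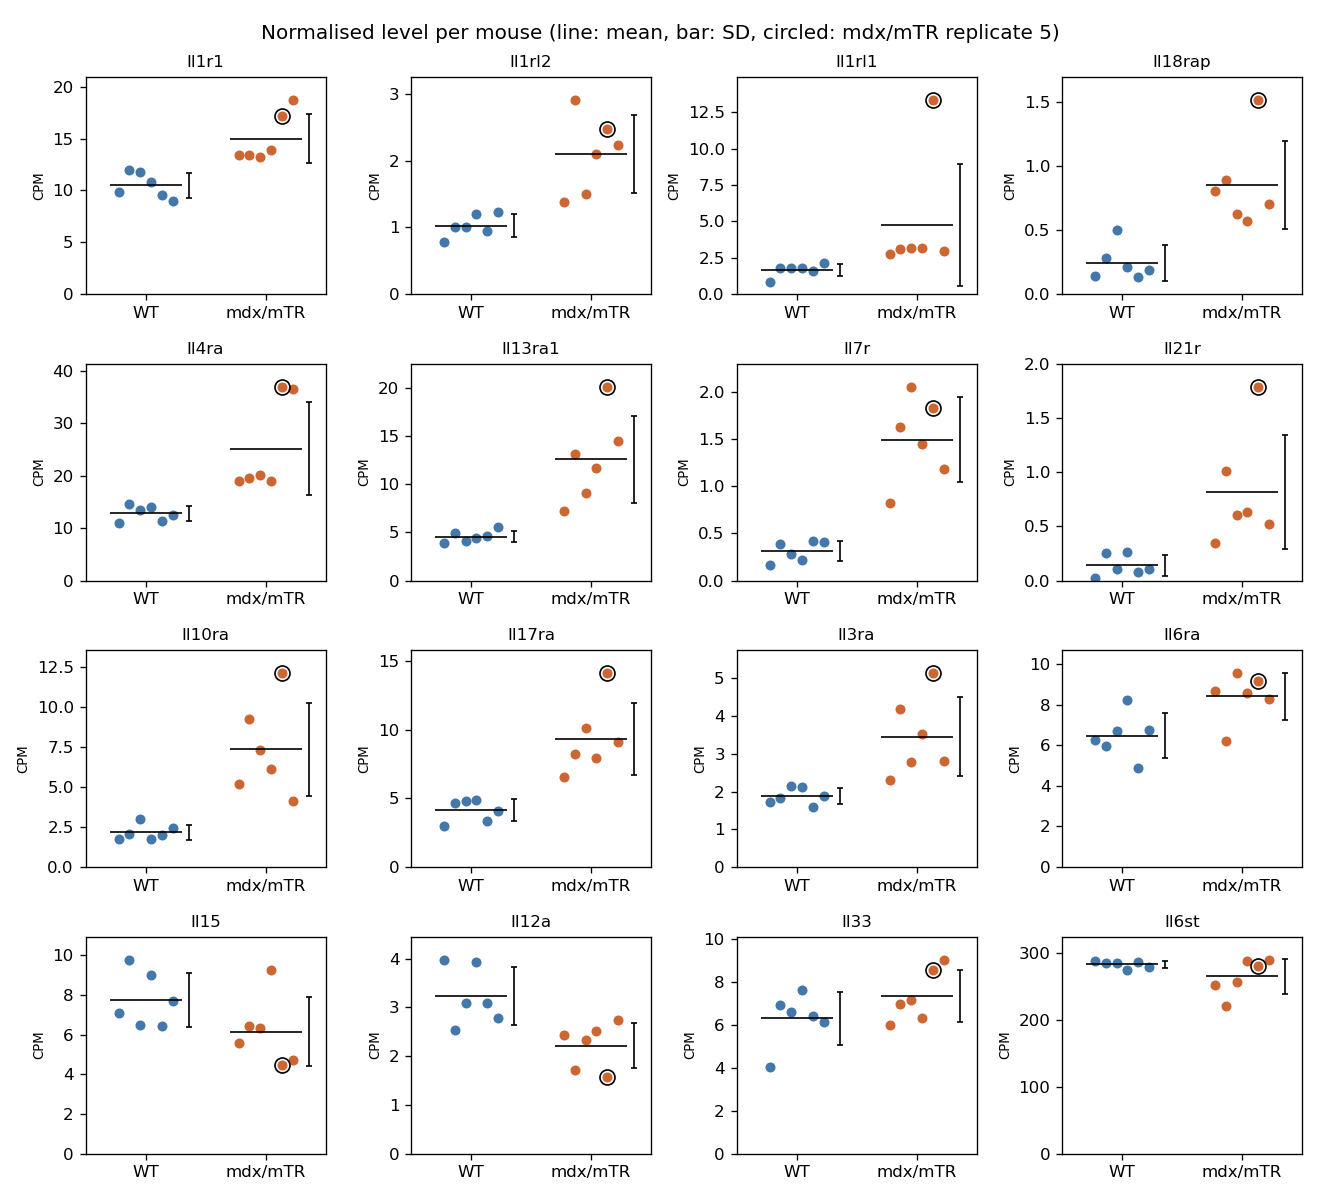
CPM of 16 interleukin genes in each mouse, WT in blue and mdx/mTR in orange, with the group mean (line) and SD (bar); the mouse mdx/mTR replicate 5 is circled. The groups do not overlap in the first 11 panels, Il1r1 to Il3ra, and overlap in the last 5.

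A cluster of 6 receptor genes of the IL-1 family lies on mouse chromosome 1. Of the 6, 5 were higher, where 25.0% of all tested genes were; Il1r2, Il18r1 and Il18rap passed the filter through the mdx/mTR libraries alone. Il1r2, Il1r1, Il1rl2, Il1rl1, Il18r1 and Il18rap span 478 kb (GENCODE M21, GRCm38 build, chromosome 1, 40074079 to 40551705), all on the plus strand, with no other protein-coding gene wholly inside. Il1r1, the signalling receptor of IL-1, was at 9.03, 10.3 and 11.9 CPM in WT and 13.2, 13.7 and 18.7 CPM in mdx/mTR (difference 0.51 ± 0.11 log2, adjusted p 0.00132). Il1rl2, the IL-36 receptor, was at 0.778, 1 and 1.23 CPM in WT and 1.38, 2.17 and 2.9 CPM in mdx/mTR (difference 1.04 ± 0.19 log2, adjusted p 0.000696). In both genes all mdx/mTR mice lay above all WT mice. Il1rl1 encodes ST2, the IL-33 receptor, and was at 0.861, 1.8 and 2.13 CPM in WT and 2.72, 3.12 and 13.3 CPM in mdx/mTR (difference 1.504 ± 0.41 log2, adjusted p 0.00763). The WT and mdx/mTR mice did not overlap, but mdx/mTR replicate 5 stood at 13.3 CPM and the rest of the group at 2.72 to 3.20 CPM. Without it the log2 fold change of Il1rl1 was 0.86 (adjusted p 0.00125).

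The pair of IL-18 receptor chains rose from low levels. Il18r1, which binds IL-18, was at 0.0821, 0.232 and 0.305 CPM in WT and 0.36, 0.418 and 0.553 CPM in mdx/mTR (difference 1.07 ± 0.27 log2, adjusted p 0.00522). Its signalling partner Il18rap was at 0.131, 0.202 and 0.5 CPM in WT and 0.572, 0.753 and 1.51 CPM in mdx/mTR (difference 1.81 ± 0.34 log2, adjusted p 0.000693), and at 1.57 (adjusted p 0.000918) without mdx/mTR replicate 5. Neither gene overlapped between the groups. The partner chain shared by the IL-1, IL-33 and IL-36 receptors, Il1rap, lies on chromosome 16 and was not called, at 2.54, 2.92 and 3.69 CPM in WT and 3.04, 3.3 and 4.32 CPM in mdx/mTR (difference 0.22 ± 0.12 log2, adjusted p 0.163).

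**Figure D4:**
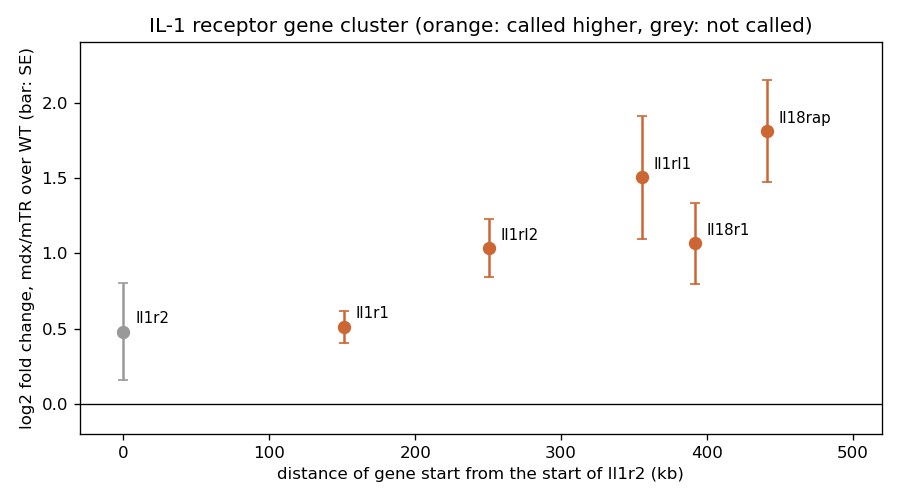
Log2 fold change, with its standard error, of the 6 IL-1 receptor family genes against the distance of each gene's start from that of Il1r2. Values run from 0.48 for Il1r2 and 0.51 for Il1r1 to 1.81 for Il18rap, and the 5 called genes are orange.

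Upstream sequence is shown for Il1rl1, whose 2 known starts give the gene different first exons, and for Il1rn, Il21r and Il7r, the 3 called genes with the largest fitted changes. Il1rn has 3 windows, of which the first is printed; the other two hold no match to the motifs below, nor does that of Il21r. Il1rl1 has 2 start sites in the RefSeq table (GRCm38.p6), 10.1 kb apart, and counts per gene do not tell which was used. The 250 bases before each start are printed, with capitals for every match to one of 5 motifs searched on both strands: GATAA (bound by GATA factors), TGANTCA (AP-1), the 10-base kappaB motif of NF-kappaB, TTCNNNGAA (STAT) and GAGGAAGT (PU.1).
Il1rl1, upstream start, chr1:40429320-40429569, strand plus: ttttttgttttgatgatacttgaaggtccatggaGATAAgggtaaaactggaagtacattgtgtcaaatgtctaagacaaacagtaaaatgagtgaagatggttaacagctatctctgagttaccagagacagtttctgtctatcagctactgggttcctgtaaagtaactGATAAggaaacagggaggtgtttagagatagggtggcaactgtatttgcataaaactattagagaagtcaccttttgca
Il1rl1, downstream start, chr1:40439379-40439628, strand plus: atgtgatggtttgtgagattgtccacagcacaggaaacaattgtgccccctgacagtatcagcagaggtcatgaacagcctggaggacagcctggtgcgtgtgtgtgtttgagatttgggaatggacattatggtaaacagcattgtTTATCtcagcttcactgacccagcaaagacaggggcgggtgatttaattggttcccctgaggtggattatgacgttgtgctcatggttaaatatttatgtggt
Il1rn, first start, chr2:24336610-24336859, strand plus: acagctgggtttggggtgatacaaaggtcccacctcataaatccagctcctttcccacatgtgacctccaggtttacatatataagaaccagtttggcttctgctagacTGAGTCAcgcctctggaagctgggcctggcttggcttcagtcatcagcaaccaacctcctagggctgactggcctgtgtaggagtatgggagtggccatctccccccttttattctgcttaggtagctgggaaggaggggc
Il21r, chr7:125603179-125603428, strand plus: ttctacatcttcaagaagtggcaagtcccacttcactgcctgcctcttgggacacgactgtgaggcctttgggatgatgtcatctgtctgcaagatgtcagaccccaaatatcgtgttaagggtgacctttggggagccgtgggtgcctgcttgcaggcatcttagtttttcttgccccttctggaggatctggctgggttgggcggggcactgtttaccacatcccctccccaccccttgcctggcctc
Il7r, chr15:9529877-9530126, strand minus: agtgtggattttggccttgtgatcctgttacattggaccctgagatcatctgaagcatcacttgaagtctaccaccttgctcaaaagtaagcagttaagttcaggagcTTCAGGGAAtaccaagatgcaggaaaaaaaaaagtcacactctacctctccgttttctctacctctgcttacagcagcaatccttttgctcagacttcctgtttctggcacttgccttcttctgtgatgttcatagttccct
GATAA was found at 2 places before the upstream start of Il1rl1 and at 1, as its reverse complement, before the downstream start. Over all 32851 windows of this length, 22.6% hold GATAA. The first Il1rn window holds 1 TGANTCA match, a motif in 6.75% of all windows, and the Il7r window 1 TTCNNNGAA match, found in 7.02%. The kappaB motif (0.356% of windows) and GAGGAAGT (2.44%) had no match in the 5 windows printed. A match is a string of letters and was not tested as a binding site. Of the 21 genes called higher, 17 have a window in the table, and 4 of those 17 hold GATAA, 2 TGANTCA, 1 the kappaB motif, 2 TTCNNNGAA and 1 GAGGAAGT. Over all 27025 genes with a window, 25.5%, 7.82%, 0.414%, 8.13% and 2.79% hold these motifs.

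The receptor chains of IL-4 and IL-13 rose together. Il4ra, the chain that binds IL-4 and signals through STAT6, was at 11.1, 13 and 14.6 CPM in WT and 18.9, 19.9 and 36.9 CPM in mdx/mTR (difference 0.97 ± 0.19 log2, adjusted p 0.00083). In mdx/mTR, replicates 5 and 6 stood at 36.9 and 36.5 CPM and the other four between 18.9 and 20.15 CPM. Il13ra1, which pairs with Il4ra to bind IL-13, was at 3.92, 4.5 and 5.53 CPM in WT and 7.16, 12.4 and 20.1 CPM in mdx/mTR (difference 1.46 ± 0.20 log2, adjusted p 7.29e-05). For both genes the groups did not overlap, and without mdx/mTR replicate 5 the values were 0.83 for Il4ra and 1.28 for Il13ra1. Their ligands were at the detection limit: Il4 had 7 counts in all 6 WT libraries together and 3 in mdx/mTR, and Il13 had 0 and 2. The decoy chain Il13ra2 had 1 and 4 counts.

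Of the chains that bind the common gamma chain cytokines, Il7r, Il21r and Il2rb had the largest rises among all receptors tested. Il7r, the IL-7 receptor of lymphocytes, was at 0.167, 0.334 and 0.418 CPM in WT and 0.819, 1.54 and 2.05 CPM in mdx/mTR (difference 2.24 ± 0.27 log2, adjusted p 2.66e-05). Il21r, the IL-21 receptor, was at 0.0278, 0.11 and 0.265 CPM in WT and 0.349, 0.618 and 1.79 CPM in mdx/mTR (difference 2.51 ± 0.49 log2, adjusted p 0.000888), and at 2.13 (adjusted p 0.000989) without mdx/mTR replicate 5. Il2rb, shared by the receptors of IL-2 and IL-15, was at 0.131, 0.165 and 0.611 CPM in WT and 0.409, 0.941 and 1.69 CPM in mdx/mTR (difference 2.13 ± 0.42 log2, adjusted p 0.00108). Il7r and Il21r did not overlap between groups, while Il2rb did through WT replicate 3 (0.611 CPM, the other WT mice 0.131 to 0.186 CPM). Without that mouse its log2 fold change was 2.68 (adjusted p 0.000168). All 3 passed the filter through the mdx/mTR libraries alone. Il2rg, the common gamma chain itself, was at 2.08, 3.06 and 4.36 CPM in WT and 3.31, 4.15 and 7.63 CPM in mdx/mTR (difference 0.63 ± 0.22 log2, adjusted p 0.0311). Its call was lost without mdx/mTR replicate 5 (0.46, adjusted p 0.0729), and 42.0% of the 50-base stretches of its transcript are shared with another annotated gene that overlaps it, so its level is uncertain.

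The private chains of IL-2 and IL-15 were not called. Il2ra, the high-affinity IL-2 receptor chain, was at 1.38, 1.56 and 2.36 CPM in WT and 1.21, 1.62 and 1.68 CPM in mdx/mTR (difference -0.12 ± 0.15 log2, adjusted p 0.54). Il15ra, which presents IL-15 to other cells, was at 12.1, 13.9 and 16.7 CPM in WT and 10.9, 16.4 and 17.6 CPM in mdx/mTR (difference 0.14 ± 0.12 log2, adjusted p 0.338). The groups overlapped for both. With library totals alone in place of TMM, Il15ra was called higher at 0.29 (adjusted p 0.0407) and Il2ra stood at 0.041 (adjusted p 0.835).

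In the IL-10 family, the IL-10 receptor was higher. Il10ra, the ligand-binding chain found on leukocytes, was at 1.73, 2.04 and 3 CPM in WT and 4.14, 6.73 and 12.1 CPM in mdx/mTR (difference 1.76 ± 0.24 log2, adjusted p 6.72e-05), and at 1.56 (adjusted p 5.33e-05) without mdx/mTR replicate 5. Il10rb, its widely expressed partner, was at 7.08, 8.17 and 9.69 CPM in WT and 7.46, 10.8 and 16.6 CPM in mdx/mTR (difference 0.43 ± 0.16 log2, adjusted p 0.0401). Il10ra did not overlap between groups, whereas the lowest mdx/mTR mice of Il10rb lay inside the WT range. Without mdx/mTR replicate 5 the Il10rb value was 0.28 (adjusted p 0.0888), the call was lost in 10 of 20 alternatives, and 29.0% of its 50-base stretches occur in another gene. Il20rb, a chain of the IL-20 and IL-24 receptors, was at 2.31, 3.04 and 4.33 CPM in WT and 2.95, 3.42 and 4.99 CPM in mdx/mTR (difference 0.27 ± 0.18 log2, adjusted p 0.22). Il10 itself had 9 counts over the WT libraries and 18 over mdx/mTR (means 0.041 and 0.0574 CPM), too few for a test.

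Receptors of the IL-17 family moved unequally. Il17ra, the chain common to most IL-17 receptors, was at 3, 4.38 and 4.91 CPM in WT and 6.55, 8.66 and 14.1 CPM in mdx/mTR (difference 1.18 ± 0.18 log2, adjusted p 0.000143), with all mdx/mTR mice above all WT mice and a log2 fold change of 1.02 without mdx/mTR replicate 5. Its partner Il17rc was at 3.75, 4.15 and 5.03 CPM in WT and 4.64, 5.07 and 7.18 CPM in mdx/mTR (difference 0.33 ± 0.12 log2, adjusted p 0.0313), a call that was lost without that mouse (0.23, adjusted p 0.0607). Il17rd, a chain that also restrains growth factor signalling, was at 8.25, 10.9 and 12.1 CPM in WT and 9.71, 10.2 and 10.6 CPM in mdx/mTR (difference -0.07 ± 0.09 log2, adjusted p 0.543). Il17re, the IL-17C receptor, was at 0.447, 0.772 and 1.1 CPM in WT and 0.461, 0.707 and 1 CPM in mdx/mTR (difference -0.16 ± 0.23 log2, adjusted p 0.604). Both overlapped between groups, and Il17rd was at 0.088 (adjusted p 0.481) with library totals alone. Of the ligands, Il17a had no count in any library and Il17f 10 and 8 counts in WT and mdx/mTR (means 0.0452 and 0.0235 CPM).

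The IL-6 receptor was slightly higher and its signalling chain was not called. Il6ra, which binds IL-6, was at 4.88, 6.48 and 8.25 CPM in WT and 6.2, 8.62 and 9.54 CPM in mdx/mTR (difference 0.38 ± 0.12 log2, adjusted p 0.0218). Replicate 2 was the one mdx/mTR mouse inside the WT range, at 6.20 CPM. Il6st was at 275, 285 and 288 CPM in WT and 221, 269 and 290 CPM in mdx/mTR (difference -0.10 ± 0.06 log2, adjusted p 0.228); its WT mice spanned a narrow range and the mdx/mTR mice a wider one around it. With library totals alone Il6st was at 0.062 (adjusted p 0.458). Il11ra1, the IL-11 receptor, was at 15.5, 18.2 and 19.5 CPM in WT and 18.6, 19.9 and 21.5 CPM in mdx/mTR (difference 0.15 ± 0.06 log2, adjusted p 0.0562), and passed the threshold with upper quartile scaling (0.19, adjusted p 0.0190) and with library totals (0.30, adjusted p 0.00264). Il6 had 22 counts over WT and 25 over mdx/mTR, at most 7 in a library, and no difference was detectable at this depth.

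Il3ra, the IL-3 receptor chain, was at 1.59, 1.86 and 2.14 CPM in WT and 2.3, 3.18 and 5.13 CPM in mdx/mTR (difference 0.88 ± 0.18 log2, adjusted p 0.00145), without overlap, and at 0.73 without mdx/mTR replicate 5. In the IL-12 family no receptor was called. Il27ra, the IL-27 receptor, was at 0.639, 0.834 and 1.06 CPM in WT and 0.602, 0.998 and 1.53 CPM in mdx/mTR (difference 0.28 ± 0.22 log2, adjusted p 0.308). The highest Il27ra mouse was mdx/mTR replicate 5. Without it the mdx/mTR mean was 0.894 CPM, against 0.827 CPM in WT. With each mouse left out in turn, the log2 fold change ran from 0.125 to 0.381. Il12rb2, the IL-12 receptor chain of activated T cells, was at 4.62, 5.65 and 6.5 CPM in WT and 3.49, 4.95 and 5.68 CPM in mdx/mTR (difference -0.25 ± 0.12 log2, adjusted p 0.0938). Exons of an opposite-strand gene cover 40.0% of the exonic bases of Il12rb2, and the strand handling is not given in the sources used here, so reads of the other gene may be included. Il4i1 was at 0.111, 0.316 and 0.361 CPM in WT and 0.107, 0.224 and 0.409 CPM in mdx/mTR (difference -0.19 ± 0.35 log2, adjusted p 0.682), with 86.3% of its exonic bases inside exons of other genes.

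Of the 31 genes with counts but no test, the totals ran from 1 to 94 over all 12 libraries, with a median of 18 and at most 24 counts in a library. Their sum was 28 to 53 counts in a WT library and 62 to 113 in an mdx/mTR library, and 14 of the 31 had at most 10 counts in all. These counts are not scaled for depth: WT libraries totalled 36903560 to 40981012 counts and mdx/mTR libraries 35136327 to 60330410. Il12rb1, the chain shared by the IL-12 and IL-23 receptors, had 2 counts over 6 WT libraries and 3 to 9 in each mdx/mTR library. Il12b had 6 counts over WT and 39 over mdx/mTR (means 0.0278 and 0.1195 CPM). With no filter on low counts both were called higher (edgeR adjusted p 0.00108 for Il12rb1 and 0.0431 for Il12b). Il1f9, the symbol in the table for IL-36 gamma, had 3 counts over WT and 34 over mdx/mTR, 24 of them in mdx/mTR replicate 5. Il7, whose receptor gene rose, had 29 counts over WT and 65 over mdx/mTR (means 0.132 and 0.215 CPM). The genes at 0 in every library were Il17a, Il24, Il20, Il19, Il22, Il3, Il9, Il1f8, Il1f6, Il1f5, Il1f10, Il11ra2 and Il31; 3 counts in a library would allow 0.0460 to 0.0837 CPM each. Intervals and limits of this kind cover counting error only.

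Genes of receptor signalling and of interleukin maturation, and partner cytokines and receptor chains, were counted by 4 lists. The counts are to be read against the 25.0% higher and 23.4% lower over all genes tested. Of 22 Janus kinase, STAT and feedback genes, 21 were tested, with 10 higher and 4 lower and a median log2 fold change of 0.18. Stat6, which carries the IL-4 and IL-13 signal, had the smallest p-value (difference 0.56 ± 0.07 log2, adjusted p 2.1e-05). The receptor-bound kinases Jak2 (difference -0.66 ± 0.09 log2, adjusted p 6.61e-05) and Jak1 (difference -0.32 ± 0.05 log2, adjusted p 0.000146) were lower. Of 23 genes from the IL-1 and IL-17 receptors to NF-kappaB, 8 were higher and 5 lower, with a median of 0.16. Nfkb2, an NF-kappaB subunit, rose (difference 0.85 ± 0.10 log2, adjusted p 2.2e-05), as did the adaptor Myd88 (difference 0.97 ± 0.17 log2, adjusted p 0.000357), while Tab2, a scaffold of the TAK1 kinase, fell (difference -0.59 ± 0.08 log2, adjusted p 6.64e-05). With library totals alone the median of all genes moved from 0.014 to 0.17, which is as large as these medians.

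Of 10 inflammasome genes, which mature IL-1beta and IL-18, 9 were tested, 6 were higher and 1 lower, with a median of 1.03. Without mdx/mTR replicate 5, 4 were higher and 1 lower, with a median of 0.78. Casp4, an inflammatory caspase, rose from 0.909 ± 0.158 to 2.85 ± 0.972 CPM (difference 1.64 ± 0.22 log2, adjusted p 5.92e-05). Pycard, the inflammasome adaptor, also rose (difference 1.95 ± 0.43 log2, adjusted p 0.00213, and 1.48 without mdx/mTR replicate 5), and Nek7, a kinase that binds Nlrp3, fell (difference -0.35 ± 0.06 log2, adjusted p 0.00035). Of 22 cytokines and receptor chains of the same families with other symbols, 18 were tested, 11 higher and 3 lower, with a median of 0.54. Csf2rb2 (difference 1.497 ± 0.16 log2, adjusted p 7.87e-06), a beta chain used by IL-3, had the smallest p-value and is uncertain because it is a near-copy of Csf2rb. Csf1r, the receptor of IL-34, rose (difference 1.32 ± 0.19 log2, adjusted p 9.96e-05), and Lifr, a partner of gp130, fell (difference -0.37 ± 0.05 log2, adjusted p 9.31e-05).

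Markers of cell types moved between the groups as well, and their part in the results above was not tested. Of 10 macrophage markers, 9 were higher. Of 8 fibroblast markers, 6 were higher, with sums of 938 to 1670 CPM in WT and 2300 to 4510 CPM in mdx/mTR. The 6 mast cell genes tested (Cpa3, Mcpt4, Cma1, Tpsb2, Kit and Ms4a2) of a list of 10 eosinophil and mast cell markers were all higher, and the list summed to 11.4 to 20.4 CPM in WT and 27.6 to 33.7 CPM in mdx/mTR. The 4 eosinophil genes were too low for the test: Siglecf was at 0 to 0.0555 CPM in WT and 0.102 to 0.191 CPM in mdx/mTR, Ccr3 averaged 0.0403 and 0.132 CPM, Prg2 0.0133 and 0.0379 CPM, and Epx was at 0 in all libraries. Of 9 T cell markers found, 3 were tested and 1 was higher, with sums of 2.91 to 7.20 CPM in WT and 3.75 to 7.07 CPM in mdx/mTR. Most of the WT sum was Cd247, a T cell receptor chain that averaged 3.59 CPM there and 2.32 CPM in mdx/mTR (not called). Cd4, the helper T cell co-receptor, was the higher one, at 0.231 ± 0.143 and 1.68 ± 0.636 CPM (SD, n = 6, difference 2.85 ± 0.37 log2, adjusted p 4.24e-05). Foxp3, of regulatory T cells, was not called (difference 0.49 ± 0.31 log2, adjusted p 0.215). Lck, a T cell kinase too low for the test, was at 0.0555 to 0.159 CPM in WT and at 0.164 CPM or more in mdx/mTR. The remaining T cell markers were also too low for it and overlapped between groups. In WT and mdx/mTR, Cd3d averaged 0.0540 and 0.0712 CPM, Cd3e 0.0817 and 0.165 CPM, and Cd3g 0.0228 and 0.0857 CPM. Cd8a averaged 0.0321 and 0.104 CPM, and Cd8b1 0.0311 and 0.0548 CPM. The 6 B cell markers summed to 0.416 to 2.54 and 1.06 to 4.18 CPM, with 1 of 3 tested, Cd22, higher. Of 7 natural killer and innate lymphoid markers 2 were tested, Rora (lower) and Gata3 (not called), and their sum, 135 to 197 CPM in WT and 104 to 143 CPM in mdx/mTR, was nearly all Rora, which other cells express. The other five, more specific to natural killer cells, had too few counts for a test and higher means in mdx/mTR: Ncr1 at 0.0357 and 0.292 CPM, Klrb1c at 0.0544 and 0.362, Klrd1 at 0.113 and 0.387, Nkg7 at 0.0865 and 0.399, and Eomes at 0.0225 and 0.145 CPM in WT and mdx/mTR. The groups did not overlap for Ncr1, Klrb1c and Nkg7 and overlapped for Klrd1 and Eomes. Over all tested genes, 12.6% lay above in every mdx/mTR mouse. For Ncr1 the gap was only from 0.0784 CPM in WT to 0.08175 CPM in mdx/mTR. Both values lie within the 0.0460 to 0.0837 CPM that 3 counts allow. Of 7 endothelial markers, 5 were lower and 0 higher. The 9 muscle fibre markers summed to 186000 to 215000 CPM in WT and 145000 to 201000 CPM in mdx/mTR, with 1 higher and 2 lower, Myh4 (difference -0.62 ± 0.14 log2, adjusted p 0.00267) and Mb (difference -0.56 ± 0.20 log2, adjusted p 0.0297). The Mb call was lost without mdx/mTR replicate 5 (-0.48, edgeR adjusted p 0.0547).

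Within mdx/mTR, replicate 5 was the highest mouse for 13 of the 21 genes called higher and the lowest for 0, and replicate 1 was the lowest for 11 and the highest for 0. Replicate 5 also had the highest sums of macrophage markers (747 CPM against 280 to 511 CPM) and of 6 neutrophil markers (18.6 against 1.87 to 3.80 CPM), and replicate 1 had the lowest of both. In replicate 5 the fibroblast (4510 CPM), T cell (7.07 CPM) and B cell (4.18 CPM) sums were the highest of the group and the muscle sum (145000 CPM) the lowest of all libraries, while replicate 1 had the highest muscle sum of the group (201000 CPM). The neutrophil receptor gene Csf3r, part of that list, made up 12.7 of the 18.6 CPM. Il1rl1, Il1rn, Il1b and Il18rap, in which replicate 5 stood far from its group, were each highest in this mouse. So was Il1f9, with 24 counts there and too few in all for the test. Whether the cell types of these lists account for these levels was not tested.

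**Figure D5:**
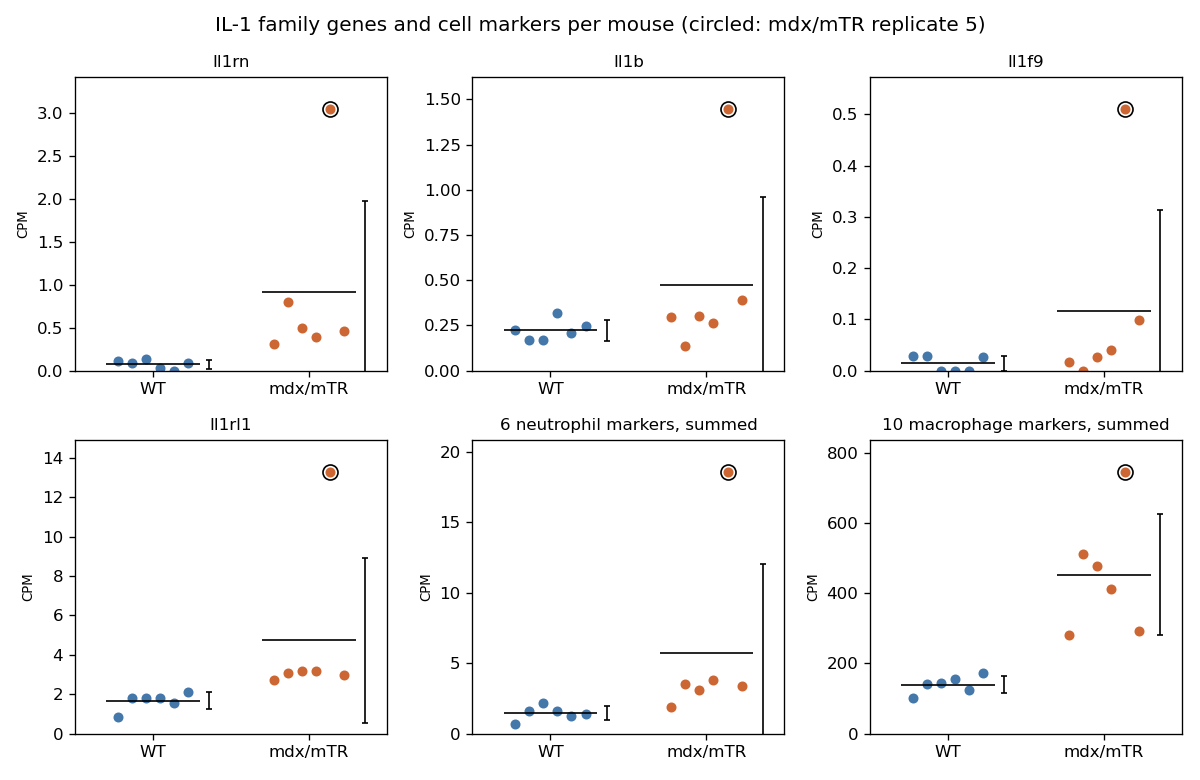
CPM per mouse of 4 IL-1 family genes and summed CPM of 6 neutrophil and 10 macrophage markers, with group mean (line) and SD (bar, drawn down to 0 at most); mdx/mTR replicate 5 is circled. It stands at 3.05 CPM for Il1rn, 1.45 CPM for Il1b and 18.6 CPM for the neutrophil markers, above the other 11 mice in all 6 panels.

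In the authors' deposited table, 38 of the 83 genes have an adjusted p, 20 of them higher and 1 lower at 0.05, where 25.4% of all genes with an adjusted p there were higher and 24.7% lower. All 21 were also called by edgeR in the same direction. Log2 fold changes in the authors' deposited table were 1.996 for Il1rn, 1.11 for Il1rl1 and 0.90 for Il4ra, against 3.59, 1.504 and 0.97 in edgeR. Il1rl1 has no p-value in the authors' deposited table and is not called there. For Il1rn, DESeq2 run on the same counts gave 3.62. The authors' fold changes may therefore not be the same measure as those of edgeR.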

How the data were processed

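Per the labels' protocols, RNA of 12 tibialis anterior muscles was extracted with a miRNEasy kit and sequenced as standard Illumina libraries. Per the submitters' processing notes, FastQC, STAR, DESeq2 and the build mm10 were used; the counter, annotation, versions and strand handling are not given in the sources used here. The authors deposited whole-number counts per gene symbol. Their deposited comparison table holds a mean normalized signal, a log2 fold change and its error, a score (the test statistic) and p-values, per the file headers; it was used only where named.

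The test was edgeR's (version 4.0.16, R 4.3.3). filterByExpr kept 13937 genes, with 99.97% of counts, which were scaled with TMM and fitted with group as the only term (glmQLFit, glmQLFTest), with Benjamini-Hochberg adjustment over all tested genes and a threshold of 0.05. SE is the size of the log2 fold change divided by the root of the F statistic. CPM uses TMM-scaled library sizes. Exon lengths, overlaps and shared 50-base stretches come from GENCODE M21, in which all 83 symbols were found; the 250-base windows come from RefSeq (GRCm38.p6), with 66 of 83 found. In simulated counts for 13937 genes of this comparison, edgeR recovered 88 of 102 genes changed 2-fold and 95 of 98 changed 3-fold, with 9 false calls. Replicates differed by more than sampling noise (chi-square per degree of freedom 9.29 to 122).

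The rule for genes named with values was every called gene, 11 fixed ones (among them Il6 and Il10) and the 3 smallest p-values of each signalling list; the remaining tested genes of the set were added, and further names were picked with their values in view. Members, lists and motifs were chosen with earlier results of these data known. Alternatives were 3 other scalings, 2 other filters, DESeq2 1.42.0, limma-voom (limma 3.58.1), a replicate block, a stricter threshold and each mouse left out.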

Additional observations from a re-analysis of the deposited data

Results flagged for a closer look

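A single mouse stood far from the other five of its group in 7 of 78 groups of 6 examined, where chance would give about 3.9. mdx/mTR replicate 5 was the high mouse in 4 of them: Il1rl1 at 13.3 CPM against 2.72 to 3.20 CPM, Il1rn at 3.05 against 0.314 to 0.798 CPM, Il18rap at 1.51 against 0.572 to 0.890 CPM and Il1b at 1.45 against 0.138 to 0.393 CPM. WT replicate 3 was the high mouse for the alpha and beta chains of the IL-2 receptor: Il2rb at 0.611 against 0.131 to 0.186 CPM and Il2ra at 2.36 against 1.38 to 1.64 CPM. In mdx/mTR replicate 2, Il6ra was low at 6.20 CPM against 8.30 to 9.54 CPM.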

How the results depend on the processing

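The number of genes called higher was 21 of 39 and ran from 15 of 27 tested (at least 1 CPM in at least 6 libraries) to 24 (library totals alone), with 22 of 60 tested in DESeq2, 19 in limma-voom and 16 at an adjusted p of 0.01. DESeq2 called 20 of the 21, gave Il1rl1 no adjusted p, and added Il12b and Il12rb1. Leaving out each mouse gave 18 to 22 genes higher and 1 to 2 lower. The number called lower was 1, and 2 with the replicate block, which added Il15 (-0.36, adjusted p 0.0273), and 0 at an adjusted p of 0.01. The replicate block gave 21 higher. Deviations of same-numbered mice from their group means had correlations of -0.138 to 0.327, with 2 of 6 over 0.1. For 2 WT libraries the best correlation was with their own number. The labels do not say whether the numbers pair mice, and these correlations cannot decide it.

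With library totals alone, Il6st (0.0615), Il17rd (0.0881) and Il2ra (0.041) changed sign, none past the threshold with either scaling, and Il2ra ran from -0.167 to 0.00634 with each mouse left out, highest without WT replicate 3. Calls were lost for Il10rb in 10 of 20 alternatives, for Il17rc in 6 and for Il2rg in 6. The other 19 called genes kept direction and call in every alternative at the 0.05 threshold in which they were tested. Low levels limit Il1rn, Il21r, Il18r1, Il2rb, Il18rap, Il7r, Il18 and Il17d among the called genes, all averaging under 1 CPM in WT.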
